A study of Mus musculus with 4 samples.

Results

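Immediate early genes and genes of the feedback on the ERK kinase cascade were described in mouse embryonic fibroblasts (MEFs) exposed to genistein. The 39 genes were taken by symbol from a fixed list of AP-1 and EGR transcription factors, dual specificity phosphatases (DUSP), Sprouty and SPRED inhibitors, ETV factors, IER, KLF and NR4A genes and ligands of the epidermal growth factor receptor (EGFR). All 39 were found among the 47937 genes of the count table, and 38 had enough counts to be tested. Ereg, an EGFR ligand, had 0 counts in both untreated libraries and in genistein 2 and 1 count in genistein 1, and was not tested.

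Total RNA was sequenced from untreated MEFs (untreated 1 and 2) and from MEFs exposed to 50 µM genistein for 24 h (genistein 1 and 2). The cells were connective tissue cells of mouse embryos, labelled wild-type in the untreated group (the genotype label of the genistein libraries gives the treatment), and both groups shared a DMEM medium with fetal bovine serum. Genistein is a plant isoflavone that inhibits tyrosine kinases. The labels do not name a vehicle for the untreated libraries or say whether the replicates were separate cultures, so p-values measure the spread between these libraries, which may be technical.

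Growth factor receptors with tyrosine kinase activity signal through Ras, Raf and MEK to the kinase ERK, which switches on immediate early genes without new protein synthesis. Some of these genes encode transcription factors such as Fos and Egr1, and others encode inhibitors such as the DUSP, Sprouty and SPRED proteins that dampen the cascade. The same genes also answer to serum, to the stress kinases JNK and p38 and to other inputs, and in fibroblasts their RNA is known to rise and decay quickly after a stimulus.

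The libraries held 28591958 to 31464284 counts, of which repeats took 11.97% and 12.52% without and 14.64% and 13.57% with genistein. Of 14 fibroblast markers, 12 were tested, of which 3 were higher and 8 were lower, beside 33.5% and 38.2% of all tested genes. Dcn, a proteoglycan, was higher and passed all the thresholds given below (log2 fold change 1.08). The summed normalised counts of the list were 492100 and 503400 in untreated and 486800 and 478300 in genistein libraries. Col1a1, a collagen chain, had 67216 to 76847 raw counts per library, whereas Thy1 was at 0 in all 4 libraries and Lum had 1 to 10 counts. Markers of other cell types also moved with the treatment. Of 8 epithelial markers 3 were tested and all 3 were lower, and the summed normalised counts of the list were 1163 and 1130 in untreated and 251 and 233 in genistein libraries, with Epcam and Krt5 at 0 in every library. Of 8 haematopoietic markers 2 were tested and both were higher, with sums of 210 and 195 against 566 and 580, with Adgre1 and Cd3e at 0 in every library. Of 6 endothelial markers 1 was tested and was higher, with sums of 25.0 and 30.7 against 85.3 and 98.2 and Tie1 at 0 in every library. Of 6 neural markers 1 was tested and was lower, with sums of 919 and 863 against 789 and 753 and Rbfox3 and Sox10 at 0 in every library. The part of these markers in the results below was not tested, and in bulk RNA fewer cells of a type and less RNA per cell cannot be told apart.

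The listed genes did not move in a common direction. At an adjusted p-value under 0.05 over all tested entries (the quasi-likelihood test of edgeR, Benjamini-Hochberg method; each fold change below is given ± its standard error), 15 of the 38 tested genes were higher with genistein (39.5%) and 16 were lower (42.1%), and 7 did not pass. Among all 16240 tested genes, 33.5% were higher and 38.2% were lower, so the shares of the listed genes lay near the background. The median log2 fold change was -0.02 over the 38 genes and -0.03 over all genes, and the median absolute log2 fold change was 0.43 and 0.44. Many of the listed genes are well expressed, and among the 30 with a mean normalised count over 100, 14 were higher and 14 were lower (46.7% each), beside 33.0% and 47.2% of the 11642 genes at that level.

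Past all 3 thresholds of the study's methods (adjusted p-value under 0.05, absolute log2 fold change over 1, mean normalised count over 100), 3 of the 38 genes were higher, namely Dusp1, Klf4 and Fos, and 1 was lower, namely Etv4. These are 7.89% and 2.63% of the genes, beside 3.92% and 4.16% of all tested genes, and rest on so few genes that the shares are imprecise. The direction differed inside the families. The DUSP, Sprouty and SPRED, AP-1, KLF and NR4A and IER groups each held genes that rose and genes that fell, as the plot of log2 fold changes by group shows. Both directions were common among all tested genes (33.5% higher and 38.2% lower). Whether these families were more divided than other sets of genes was not tested.

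**Figure D1:**
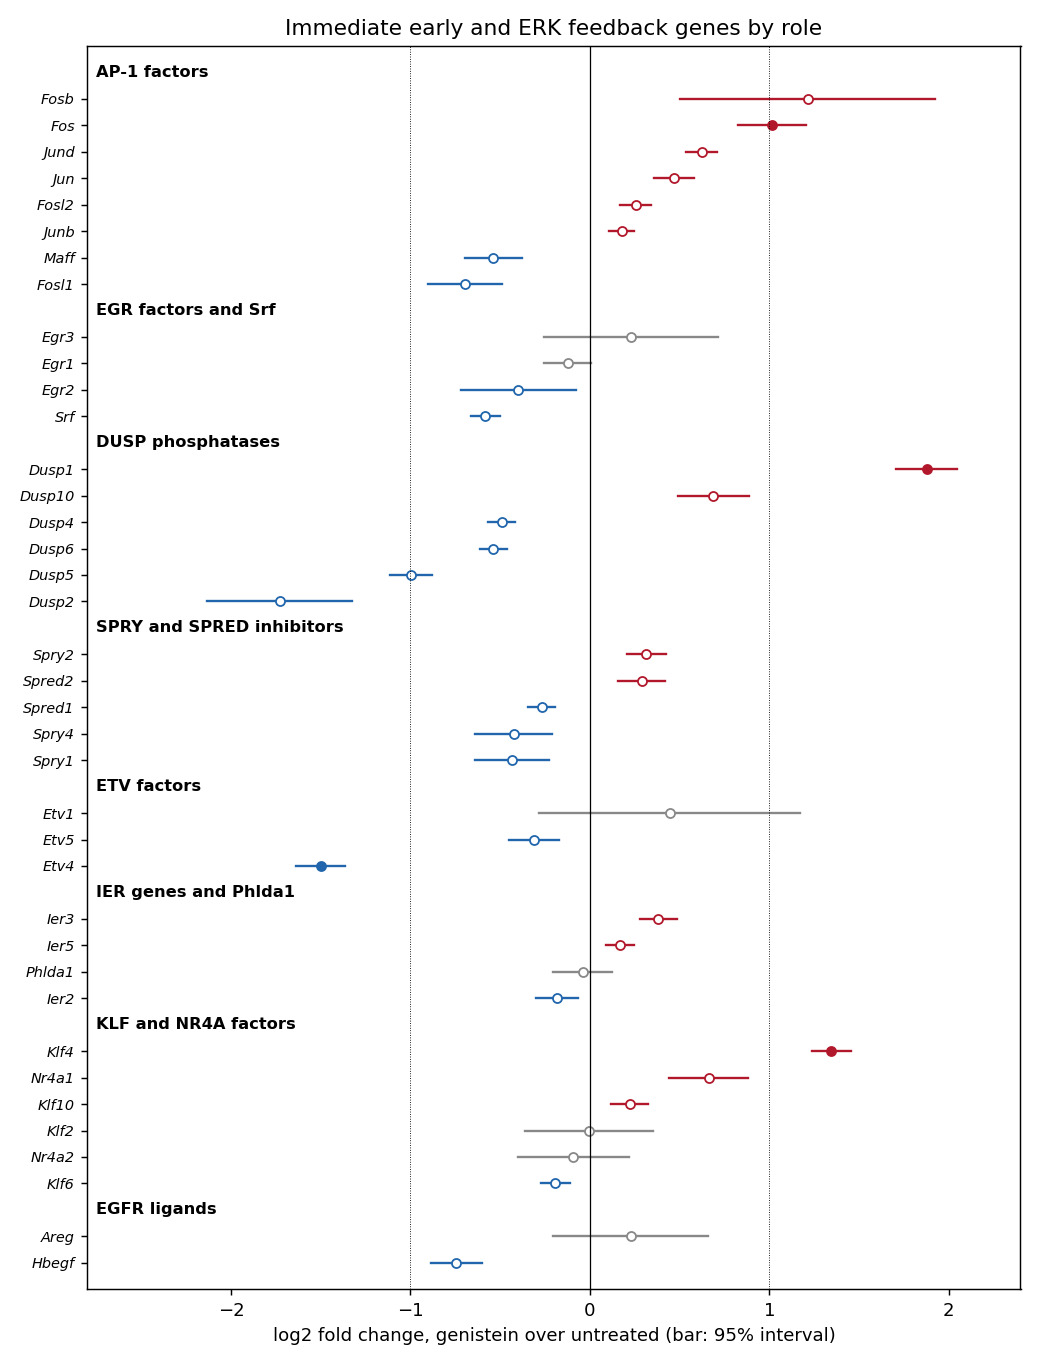
Log2 fold change of each of the 38 tested genes, genistein against untreated, by role group (2 libraries per group). Bars are 95% intervals from standard errors derived from edgeR's F statistic. Red marks genes that were higher and blue genes that were lower at an adjusted p-value under 0.05, grey genes that did not pass, and filled points those past all 3 thresholds. Dusp1 lies farthest to the right at 1.88 and Dusp2 farthest to the left at -1.73, in the same family.

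The promoters of Fos, Dusp1 and Klf4, which passed all 3 thresholds upward, and of Dusp2 and Dusp5, the listed phosphatases with the largest falls, are shown because their family members moved in opposite directions. Of the 39 genes, 28 had a promoter entry in the RefSeq table (GRCm38.p6), and Etv4 had none. Each line gives the 250 bases before the start in RefSeq, 5′ to 3′ on the gene's strand. The gene spans given below are from GENCODE, which places some starts elsewhere, so that the Dusp1 window lies inside the longer GENCODE span of that gene and the Dusp5 window runs past its GENCODE start. Capitals mark matches on either strand to TGACG (the core of the cAMP response element, read as CGTCA on the other strand), to GCGNGGGCG (the EGR site) or to the CArG box bound by serum response factor. They also mark TATAAA, which was sought on the gene's strand only.
Fos (chr12:85473640-85473889, plus strand): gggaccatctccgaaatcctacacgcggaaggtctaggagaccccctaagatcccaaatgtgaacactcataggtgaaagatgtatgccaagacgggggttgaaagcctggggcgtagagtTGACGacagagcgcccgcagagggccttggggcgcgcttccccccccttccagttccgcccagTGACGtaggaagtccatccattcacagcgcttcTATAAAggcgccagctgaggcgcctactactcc
Dusp1 (chr17:26508473-26508722, minus strand): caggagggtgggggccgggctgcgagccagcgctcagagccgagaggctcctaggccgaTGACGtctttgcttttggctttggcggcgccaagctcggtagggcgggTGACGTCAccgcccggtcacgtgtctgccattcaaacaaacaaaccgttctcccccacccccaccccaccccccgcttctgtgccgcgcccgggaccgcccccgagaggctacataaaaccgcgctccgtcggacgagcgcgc
Klf4 (chr4:55532476-55532725, minus strand): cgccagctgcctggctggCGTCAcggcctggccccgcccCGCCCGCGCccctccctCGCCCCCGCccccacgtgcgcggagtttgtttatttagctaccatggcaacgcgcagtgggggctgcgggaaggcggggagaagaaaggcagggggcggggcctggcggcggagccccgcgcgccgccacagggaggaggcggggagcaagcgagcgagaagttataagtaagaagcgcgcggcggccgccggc
Dusp2 (chr2:127335909-127336158, plus strand): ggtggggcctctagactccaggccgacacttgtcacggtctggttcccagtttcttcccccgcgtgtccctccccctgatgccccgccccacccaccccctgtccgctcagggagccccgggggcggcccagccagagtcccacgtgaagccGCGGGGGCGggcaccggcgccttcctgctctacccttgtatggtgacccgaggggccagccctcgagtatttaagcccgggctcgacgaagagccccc
Dusp5 (chr19:53528895-53529144, plus strand): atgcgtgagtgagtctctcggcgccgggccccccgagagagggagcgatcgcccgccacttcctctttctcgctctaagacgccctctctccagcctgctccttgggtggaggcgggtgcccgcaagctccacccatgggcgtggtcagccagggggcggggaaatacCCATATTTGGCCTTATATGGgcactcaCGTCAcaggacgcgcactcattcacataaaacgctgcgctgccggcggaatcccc

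Positions below are counted back from the RefSeq start, with -1 as the last base printed. Fos held TGACG at -129 and -66 and TATAAA at -33. Dusp1 held TGACG at -191, -143 and -140, and the matches at -143 and -140 overlap on opposite strands as the full element TGACGTCA. In Klf4, TGACG lay at -232 on the other strand and the EGR site at -211 and -194. Dusp2 held no TGACG and 1 EGR site at -98, whereas Dusp5 held 2 adjoining CArG boxes at -82 and -72 and TGACG at -55.

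Over the same 250 bases, TGACG was found on either strand in 14 of the 28 promoters (50%), against 19.8% of 27025 genes with an entry. This background includes genes that were not expressed enough to be tested here, and shares among tested genes alone were not counted. These 14 included promoters of genes that rose, such as Junb and Nr4a1, and of genes that fell, such as Srf and Maff. The full element TGACGTCA, which contains TGACG, was in Maff, Dusp1 and Areg (10.7%, against 1.77% of all genes). CArG boxes were in Egr2, Srf and Dusp5 (10.7%, against 1.62%), and the EGR site was in 9 promoters (32.1%, against 5.33%). The AP-1 site TGANTCA was in 0 of 28 promoters, against 7.82% of all genes. The ETS site CCGGAAG was in 1 promoter, that of Srf (3.57%, against 7.83%). On the gene's strand, TATAAA was in those of Fos and Areg (7.14%, against 8.94%). A match describes the letters of this window and not a bound site.

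AP-1 is a dimer of a Fos family and a Jun family protein that binds DNA. Of the 8 genes of this group, 6 rose and 2 fell, beside 33.5% and 38.2% of all tested genes. The median log2 fold change was 0.36. Fos (chr12:85473890-85477273, plus strand), the prototype of the family, had normalised counts of 206 and 219 without and 447 and 410 with genistein. The groups did not overlap, and the log2 fold change was 1.01 ± 0.09 (adjusted p = 3.4e-08, edgeR). Fos lay close to the fold threshold, with 0.96 without untreated 1 and 0.95 without genistein 1.

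Fosl1, which encodes Fra-1 and is known as an ERK-responsive member of the Fos family, moved the other way. Its normalised counts were 420 and 432 in untreated and 292 and 232 in genistein libraries (log2 fold change -0.70 ± 0.10, adjusted p = 7.9e-06, edgeR). Of its exon bases, 57.2% overlap those of Ccdc85b on the opposite strand, which had a log2 fold change of -0.18, and the counter's strand option was not stated, so reads of the shared stretch cannot be assigned to 1 gene. Fosl2, which encodes Fra-2 and had the highest counts in the group, was at 4317 and 4546 in untreated and 5500 and 5074 in genistein libraries (log2 fold change 0.26 ± 0.04, adjusted p = 2.6e-05, edgeR). Fosb was scarce, with normalised counts of 13.0 and 15.9 in untreated and 42.2 and 24.3 in genistein libraries. Its log2 fold change of 1.21 had a standard error of 0.33 (adjusted p = 0.004, edgeR), and without genistein 1 it was 0.75 and no longer passed (adjusted p = 0.14).

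The 3 Jun family genes encode the obligate partners of the Fos proteins, and all 3 rose in every fit made. Jund, with the largest change of the 3, had normalised counts of 1794 and 1814 in untreated and 2697 and 2862 in genistein libraries (log2 fold change 0.62 ± 0.04, adjusted p = 8.6e-10, edgeR). An antisense gene overlaps 52.6% of its exon bases, and that gene had only 2 to 6 raw counts per library. Jun was at 1072 and 1133 against 1473 and 1582 (log2 fold change 0.47, adjusted p = 6.1e-07, edgeR). Junb was at 4019 and 4023 against 4560 and 4529 (log2 fold change 0.18, adjusted p = 0.00012, edgeR). Junb thus had the smallest fold change of the 3. Its exon bases overlap by 7.52% those of Prdx2 on the opposite strand, a gene with 8362 to 9511 raw counts per library that was lower (log2 fold change -0.17), and those of Jun overlap by 7.28% its antisense gene Junos, with 22 to 39 raw counts. Reads of these stretches cannot be assigned to 1 gene either. Maff, a small Maf protein that pairs with other leucine zipper factors, fell, with normalised counts of 631 and 560 in untreated and 404 and 418 in genistein libraries (log2 fold change -0.54, adjusted p = 6.8e-06, edgeR).

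Levels of different genes were compared as CPM per kilobase of exon, where CPM scales counts to the effective library size. The summed level per kilobase of the Fos family was 24.8 and 26.0 in untreated and 30.4 and 27.3 in genistein libraries, whereas that of the Jun family was 106 and 107 against 136 and 140. Within the Fos family, the share of Fos was 11.8% and 11.98% in untreated and 20.9% and 21.4% in genistein libraries. The share of Fosl1 moved from 27.8% and 27.3% to 15.8% and 14.0%. Fosl2 held the largest share in every library, 60.1% and 60.4% in untreated and 62.5% and 64.2% in genistein libraries, and Fosb held under 1% throughout. Fos and Fosl1 thus changed places, with Fosl1 above Fos in both untreated libraries and Fos above Fosl1 in both genistein libraries. Within the Jun family, Junb had the largest share, at 55.3% and 54.8% in untreated and 48.8% and 47.1% in genistein libraries, while the share of Jund was 34.1% in both untreated libraries and 39.8% and 41.1% in genistein libraries. The shares were not tested, and those of Fosl1, Jun, Junb and Jund carry the overlaps named above.

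**Figure D2:**
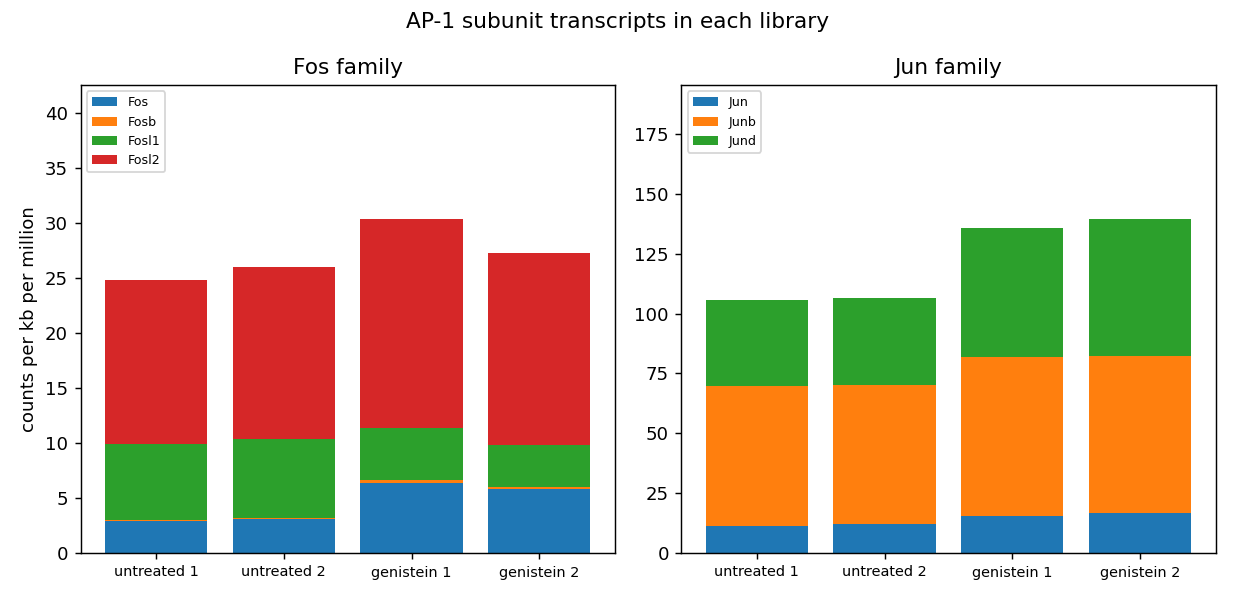
Level of each gene of the Fos family and of the Jun family in each of the 4 libraries, in CPM per kilobase of exon. The bars are stacked, so that their height is the summed level of the family. Fos takes 20.9% and 21.4% of its family with genistein against 11.8% and 11.98% in the untreated libraries, and Fosl1 takes the smaller share there.

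The DUSP proteins remove phosphate from mitogen-activated protein kinases and are themselves induced by the kinases they switch off. Of the 6 genes, 2 rose and 4 fell, beside 33.5% and 38.2% of all tested genes, and the group had a median log2 fold change of -0.51. Dusp1 (chr17:26505590-26562128, minus strand), which acts in the nucleus on p38, JNK and ERK, had the largest increase among the listed genes, with normalised counts of 204 and 241 in untreated and 835 and 799 in genistein libraries. The groups lay far apart, and the gene was 3.68-fold higher (log2 fold change 1.88 ± 0.08, adjusted p = 4.2e-12, edgeR). Dusp10, which acts mainly on JNK and p38, also rose. Its normalised counts were 279 and 232 in untreated and 408 and 417 in genistein libraries (log2 fold change 0.69 ± 0.09, adjusted p = 5e-06, edgeR).

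Dusp2 (chr2:127336159-127338376, plus strand), a nuclear phosphatase, had the largest decrease, with normalised counts of 124 and 155 in untreated and 49.7 and 33.4 in genistein libraries. It was 3.31-fold lower (log2 fold change -1.73 ± 0.19, adjusted p = 5e-07, edgeR), and only its mean normalised count of 90.4 kept it short of the 3 thresholds. Dusp5 (chr19:53529109-53542431, plus strand), a nuclear phosphatase specific to ERK, had 1338 and 1372 in untreated and 700 and 656 in genistein libraries. Its log2 fold change, -0.998 ± 0.06 (adjusted p = 1.1e-10, edgeR), lay at the fold threshold and crossed it in some fits, with -1.01 under DESeq2. An antisense gene that is absent from the deposited counts overlaps 22.1% of its exon bases.

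Dusp6, the cytoplasmic phosphatase specific to ERK, was the most counted gene of the group, with 5120 and 4938 in untreated and 3396 and 3531 in genistein libraries. Its log2 fold change was -0.54 ± 0.03 (adjusted p = 7.4e-10, edgeR). Dusp4, a nuclear phosphatase of ERK and JNK, was at 4348 and 4317 against 3018 and 3148 (log2 fold change -0.49, adjusted p = 2.3e-09, edgeR). Both listed phosphatases specific to ERK were therefore lower with genistein, as were Dusp2 and Dusp4, while Dusp1 and Dusp10 were higher. Of these, Dusp1 also acts on ERK and Dusp4 also acts on JNK. The ratio of Dusp1 to Dusp2 per kilobase, which restates both fold changes for a pair chosen after its values were seen, was 0.996 and 0.945 without and 10.2 and 14.5 with genistein.

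**Figure D3:**
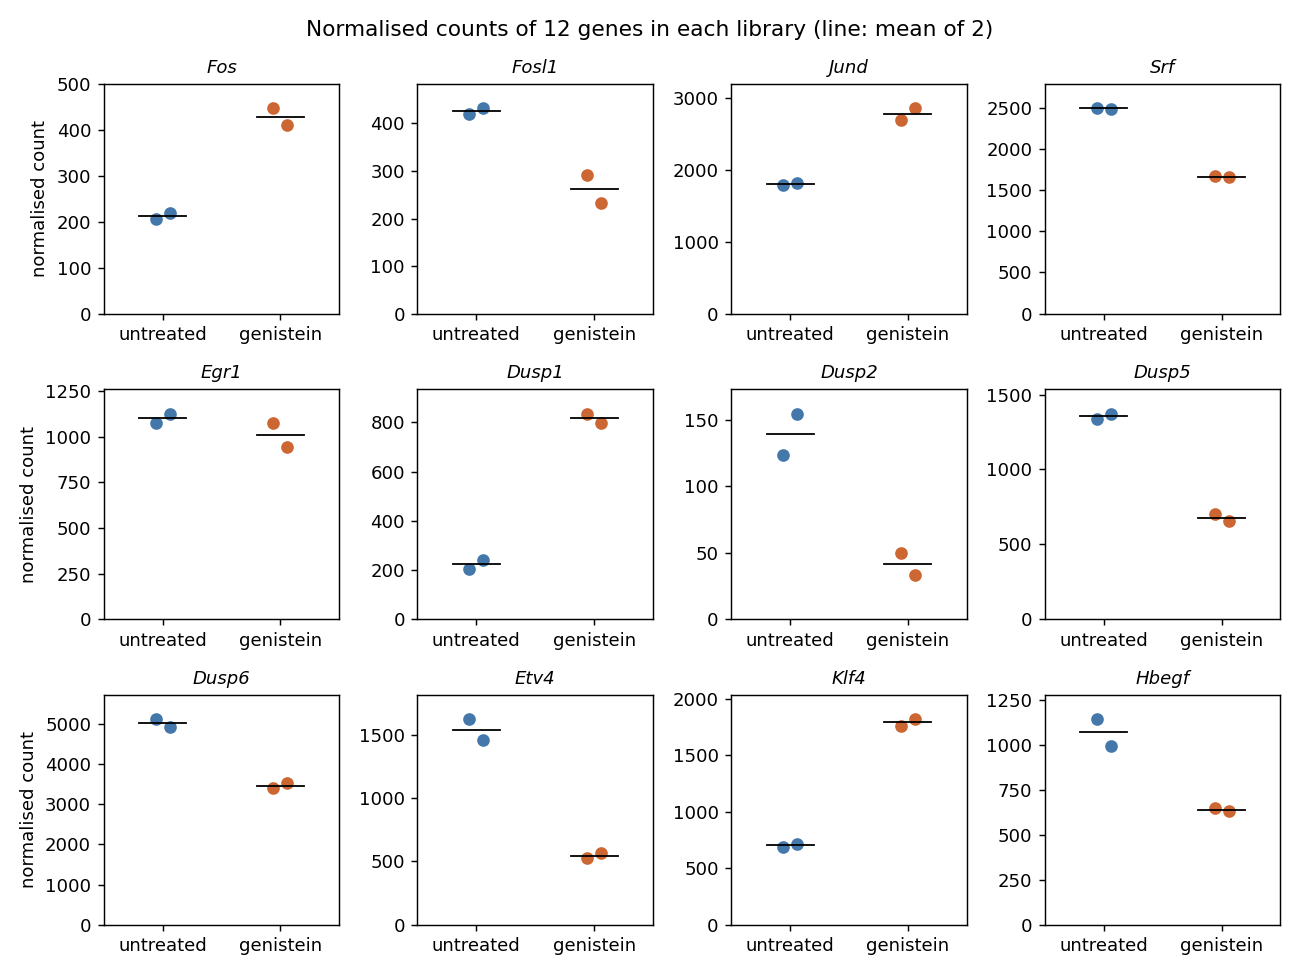
Normalised counts of 12 of the listed genes in each library, with 1 point per library and a line at the mean of 2, on axes that start at 0. Fos, Jund, Dusp1 and Klf4 are higher in both genistein libraries, Fosl1, Srf, Dusp2, Dusp5, Dusp6, Etv4 and Hbegf are lower in both, and Egr1 (1075 and 1126 against 1074 and 943) did not pass the test.

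Sprouty and SPRED proteins block the cascade upstream of ERK, and SPRED proteins do so by bringing neurofibromin to Ras. Of the 5 genes, 2 rose and 3 fell, all by less than the fold threshold, beside 33.5% and 38.2% of all tested genes. Spry1 had normalised counts of 314 and 357 in untreated and 235 and 261 in genistein libraries, the largest change of the group (log2 fold change -0.43 ± 0.10, adjusted p = 0.00081, edgeR). Spry4 was at 340 and 354 against 284 and 231 (log2 fold change -0.42, adjusted p = 0.0013, edgeR). In contrast, Spry2 rose from 1277 and 1161 to 1519 and 1516 (log2 fold change 0.32, adjusted p = 4.5e-05, edgeR). The SPRED genes split in the same way. Spred1, the most counted of the group, had 4820 and 4813 in untreated and 3880 and 4118 in genistein libraries (log2 fold change -0.27 ± 0.04, adjusted p = 3.8e-06, edgeR). Spred2 had 564 and 600 against 700 and 723 (log2 fold change 0.29, adjusted p = 0.00053, edgeR). The ratio of Spry2 to Spry1 per kilobase, also a pair chosen after its values were seen, was 5.67 and 4.53 in untreated and 8.98 and 8.09 in genistein libraries, and a gene model with 1 to 4 raw counts overlaps 24.4% of the exon bases of Spry1 on the opposite strand.

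ETV1, ETV4 and ETV5 are ETS transcription factors of the PEA3 group, known as targets and effectors of ERK signalling downstream of fibroblast growth factor receptors. Etv4 (chr11:101769742-101785371, minus strand) fell most, with normalised counts of 1621 and 1456 in untreated and 527 and 562 in genistein libraries. It was 2.83-fold lower (log2 fold change -1.50 ± 0.06, adjusted p = 4.6e-12, edgeR), and passed all 3 thresholds. Etv5 was at 598 and 569 against 473 and 469, a smaller decrease (log2 fold change -0.31 ± 0.07, adjusted p = 0.00051, edgeR). Etv1 was scarce, at 13.0 and 12.7 in untreated and 16.9 and 18.2 in genistein libraries, and its log2 fold change of 0.44 ± 0.34 did not pass (adjusted p = 0.27, edgeR).

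EGR proteins are zinc finger factors, and serum response factor (Srf) binds the CArG boxes found in front of many immediate early genes. Of these 4 genes, 2 fell, beside 38.2% of all tested genes, and 2 did not pass the test. Srf had the highest counts and the largest change, with 2493 and 2489 in untreated and 1672 and 1656 in genistein libraries (log2 fold change -0.58 ± 0.04, adjusted p = 9.7e-10, edgeR). The replicates of Srf nearly coincided, so the groups were clearly separate. Egr1, the best known member of its family, had normalised counts of 1075 and 1126 in untreated and 1074 and 943 in genistein libraries. Its groups barely separated, and its log2 fold change of -0.12 ± 0.06 did not pass (adjusted p = 0.085, edgeR), although it passed without genistein 1 (-0.22, adjusted p = 0.0044) and without untreated 1 (-0.16, adjusted p = 0.039). Egr2 was lower, at 94.9 and 96.3 in untreated and 73.1 and 71.9 in genistein libraries (log2 fold change -0.40 ± 0.15, adjusted p = 0.027, edgeR), a call that was lost in each of the 4 fits that left out 1 library (adjusted p from 0.051 to 0.11). Egr3 was at 35.0 and 42.4 against 51.6 and 38.5, with overlapping groups (log2 fold change 0.23, adjusted p = 0.38, edgeR).

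IER genes are small immediate early genes, of which Ier3 is also a stress gene that affects cell survival, and Phlda1 encodes a pleckstrin homology-like protein. Ier3 rose most, from 1413 and 1322 to 1724 and 1843 normalised counts (log2 fold change 0.38 ± 0.05, adjusted p = 3.3e-06, edgeR). Ier5 had the highest counts of the group, at 2233 and 2187 in untreated and 2465 and 2502 in genistein libraries (log2 fold change 0.17, adjusted p = 8e-04, edgeR). Ier2 moved the other way. It was at 977 and 974 against 873 and 843 (log2 fold change -0.18, adjusted p = 0.0067, edgeR), a small difference that no longer passed with DESeq2 (adjusted p = 0.052) or with scaling by library totals (adjusted p = 0.08). Phlda1 was at 565 and 645 against 627 and 546, with overlapping groups (log2 fold change -0.04 ± 0.08, adjusted p = 0.65, edgeR). A non-coding gene on the opposite strand overlaps 33% of its exon bases and had 7 to 13 raw counts per library.

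KLF factors are zinc finger regulators of growth and differentiation, and NR4A factors are orphan nuclear receptors that are switched on as immediate early genes. Klf4 (chr4:55527143-55532466, minus strand), a factor known for restraining proliferation, had normalised counts of 691 and 718 in untreated and 1763 and 1819 in genistein libraries. It was 2.54-fold higher (log2 fold change 1.35 ± 0.05, adjusted p = 1.2e-12, edgeR), larger than the spread between replicates. Klf6, the most counted gene of the group, fell slightly, with 3196 and 3134 in untreated and 2693 and 2847 in genistein libraries (log2 fold change -0.19 ± 0.04, adjusted p = 0.00026, edgeR). The ratio of Klf4 to Klf6 per kilobase, again a pair chosen after its values were seen, was 0.312 and 0.330 in untreated and 0.943 and 0.920 in genistein libraries. Klf10, a gene induced by transforming growth factor beta, rose from 1212 and 1217 to 1455 and 1377 (log2 fold change 0.22, adjusted p = 0.00074, edgeR). Klf2 was at 69.9 and 66.7 against 70.3 and 65.8, with overlapping groups and a 95% interval of the log2 fold change from -0.36 to 0.35. Nr4a1 rose, from 231 and 241 to 411 and 334 (log2 fold change 0.66 ± 0.10, adjusted p = 2.8e-05, edgeR). Its relative Nr4a2 was at 111 and 94.2 against 96.6 and 96.2, where the groups overlapped (log2 fold change -0.09, adjusted p = 0.58, edgeR).

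The EGFR ligands are released from the cell surface and feed back on the receptor at the top of the cascade. Hbegf, the heparin-binding ligand, had normalised counts of 1143 and 996 in untreated and 647 and 632 in genistein libraries. The groups were well apart, and the log2 fold change was -0.74 ± 0.07 (adjusted p = 4.9e-08, edgeR). Areg, which encodes amphiregulin, was at 42.0 and 49.8 against 48.8 and 58.7, with overlapping groups (log2 fold change 0.23 ± 0.20, adjusted p = 0.33, edgeR).

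Levels in CPM per kilobase of exon spanned a wide range in both groups. The highest mean levels in untreated cells were those of Junb (58.4 in untreated and 66.0 in genistein), Dusp6 (53.7 and 37.0) and Dusp4 (52.9 and 37.6). Ier3 was at 40.4 and 52.7, and Jund at 36.2 and 55.7. The order at the top therefore changed, and Jund and Ier3 stood above both phosphatases in genistein cells and below them in untreated cells. The levels of Junb and Jund carry the overlaps with other genes named above. The lowest mean levels of tested genes were those of Etv1 (0.0323 and 0.044) and Fosb (0.0773 and 0.178). The plot of levels in both groups shows most genes between the lines for a doubling and a halving.

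**Figure D4:**
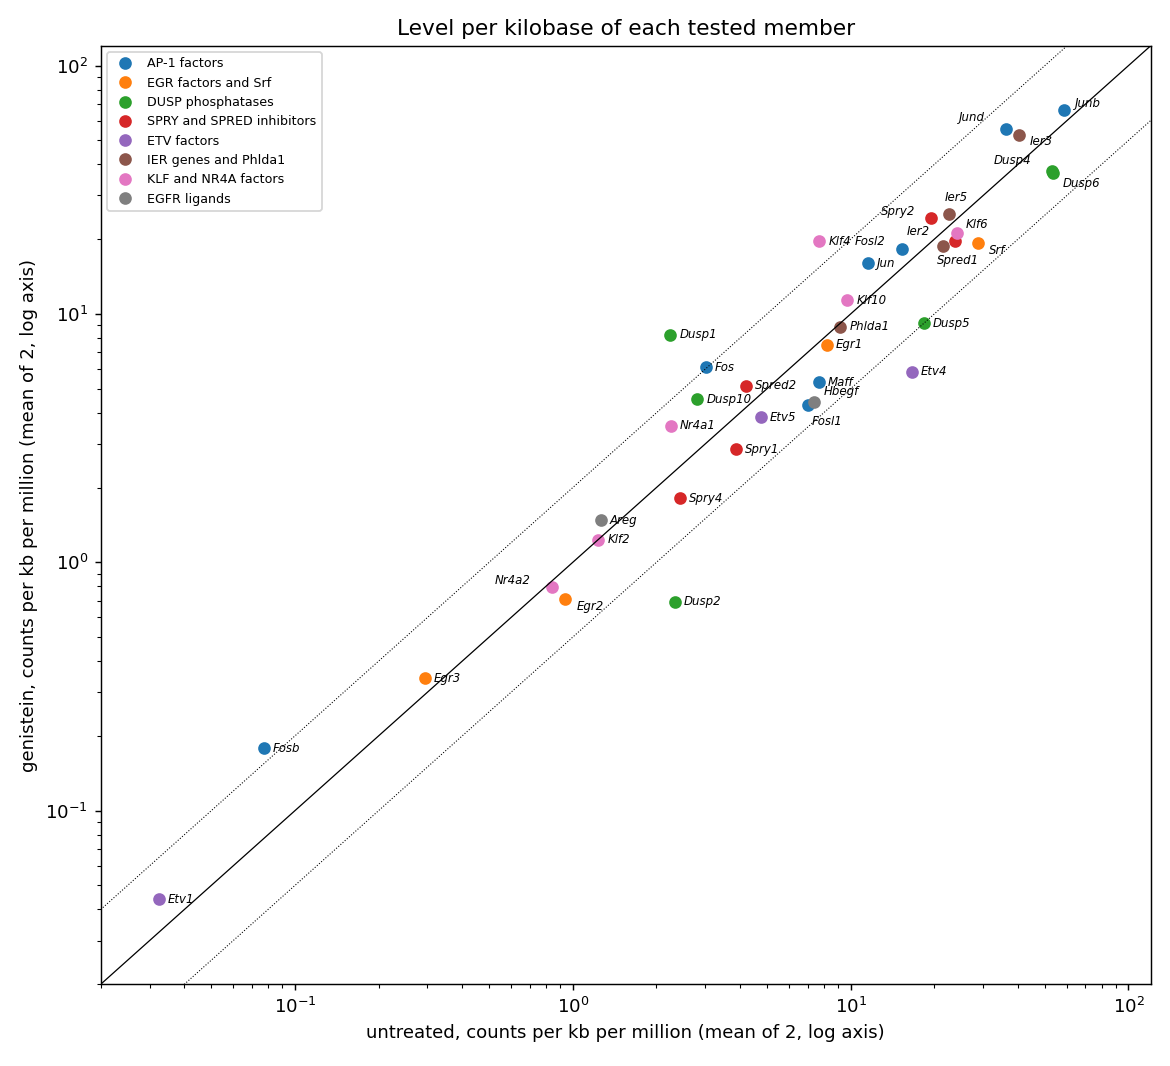
Mean level of each tested gene in genistein cells against untreated cells, in CPM per kilobase of exon on log axes, coloured by role group (2 libraries per group). The solid line marks equal levels and the dotted lines a change by the fold threshold. Dusp1, Klf4, Fosb and, narrowly, Fos lie above the upper line, and Etv4 and Dusp2 below the lower line.

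Immediate early transcripts are known for rapid decay, set in part by AU-rich elements in the 3′ UTR. On the sense strand, the heptamer TATTTAT was found in the annotated 3′ UTR of 24 of the 38 tested genes (63.2%). The share was 28.6% among the 12140 tested genes with an annotated coding transcript, where a 3′ UTR of 0 bases was kept. Their median 3′ UTR length of 1019 bases was close to the 1112 bases of the listed genes. The heptamer was in 9 of the 15 genes that were higher and in 10 of the 16 that were lower (60% and 62.5%), so its presence did not separate the directions.

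Other genes of the pathway were taken from lists written from general knowledge, with earlier results of these data known. Among 35 genes from receptors to ERK, 15 were higher and 16 were lower, beside 33.5% and 38.2% of all tested genes. Their median log2 fold change was -0.04. Only Fgfr1, a fibroblast growth factor receptor, passed all 3 thresholds, with mean normalised counts of 689 in untreated and 1431 in genistein libraries and a log2 fold change of 1.05. Of 15 genes of the JNK and p38 branches, 7 were higher and 3 were lower, beside 33.5% and 38.2% of all tested genes. The median was -0.02.

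Relatives of the listed genes that were not in the list were counted in the same way. Of 22 such paralogs 18 were tested, 12 were higher and 4 were lower, beside 33.5% and 38.2% of all tested genes, and the median was 0.43, beside -0.03 for all genes. Past all 3 thresholds the list held 2 higher and 2 lower genes. Those past the thresholds were Klf11 (1.17) and Klf7 (1.06), which were higher, and the ERK phosphatases Dusp9 (-1.97) and Dusp7 (-1.09), which were lower, in log2 fold change. Of 12 dimer partners or relatives of AP-1 factors 10 were tested. Of these, 6 were higher and 2 were lower, beside 33.5% and 38.2% of all tested genes, with a median of 0.21. Atf3, a stress-induced leucine zipper factor, was at 111 in untreated and 359 in genistein libraries on average (log2 fold change 1.69).

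Of 19 other early and delayed response genes, 9 were higher and 6 were lower, beside 33.5% and 38.2% of all tested genes. The median was 0.10. The 4 with the largest changes past the thresholds were Gadd45a, a DNA damage response gene (2.37), Btg2, an antiproliferative gene (2.13), Atf3, which is in both lists, and Plaur, the urokinase receptor (-1.13). Of 14 targets of Srf cofactors and of the YAP pathway, 3 were higher and 9 were lower, beside 33.5% and 38.2% of all tested genes, with a median of -0.25. The 3 that were higher, named after their values were seen, were the contractile and adhesion genes Acta2 (0.40), Tagln (0.74) and Vcl (0.25), in log2 fold change. Other contractile, cytoskeletal and adhesion genes of the list were lower, namely Actb (-0.69), Actg1 (-0.53), Zyx (-0.39), Flna (-0.26) and Tpm1 (-0.24). Cnn1 and Myh9 did not pass the test. Ankrd1 (-1.62) and Ccn2 (-1.46), both known YAP targets, were the 2 past the thresholds, and both were lower.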

How the data were processed

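Total RNA of MEFs was sequenced in 4 libraries as described in the report, with groups and replicate numbers taken from the labels. The deposited table holds unnormalised counts for every gene and repeat. The authors made it from paired-end reads of RNA depleted of ribosomal RNA, which they trimmed with Trim Galore, aligned by STAR to mm10 keeping reads with many alignments, sorted with samtools and counted with TEtranscripts over GENCODE genes and a modified RepeatMasker annotation. The strand option was not given in the sources used here, so overlapping genes on opposite strands were treated as uncertain.

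The 1 entry that names no gene held 0.00208% to 0.00314% of a library's counts and was left out. Symbols, coordinates and merged exon lengths came from GENCODE annotation on GRCm38, the assembly of mm10, and promoters from RefSeq (GRCm38.p6). The GENCODE release was later than the one the paper names for its counts. Exon lengths and overlaps may therefore differ from those used in counting. Genes and repeats were analysed in 1 table with edgeR 4.0.16 in R 4.3.3. filterByExpr kept 17358 entries, 16240 of them genes, and libraries were scaled with TMM factors. Normalised counts are counts rescaled to the mean effective size of the 4 libraries. Groups were compared with the quasi-likelihood test, adjusted by Benjamini-Hochberg over all kept entries. Standard errors were derived as the absolute log2 fold change divided by the square root of the test's F statistic. Intervals used the t distribution with the test's degrees of freedom. The script was tested on simulated data. The chi-square per degree of freedom between replicates was 5.48 in untreated and 12.1 in genistein libraries, above sampling noise, so they were kept as separate libraries. Over the listed genes the median absolute log2 difference between replicates was 0.071 in untreated and 0.086 in genistein libraries. The smallest p-value of an exact permutation test (two-sided) in this design is 0.333, so model-based tests were used.

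The listed genes, the pathway and marker lists and the role groups were chosen with earlier results of these data known. Every listed gene is accounted for. Those past all 3 thresholds, and in each role group the one with the highest mean normalised count and the one with the largest absolute log2 fold change, are given with all 4 values, and up to 4 genes past the thresholds are named from a pathway list. A gene of 1 pathway list is not reported here, and that list was counted without it. Alternatives covered scaling, the filter, DESeq2 1.42.0, the thresholds, the replicate number as a block and the removal of each library.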

Additional observations from a re-analysis of the deposited data

How the results depend on the processing

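Across scaling, filtering, DESeq2, the replicate block and the removal of single libraries, 14 to 15 of the listed genes were higher and 14 to 17 were lower at an adjusted p-value under 0.05, and the median of all genes stayed within -0.04 and 0.04. Scaling by library totals gave 15 higher and 14 lower, and DESeq2 gave 14 and 14, where Fosb (adjusted p = 0.056), Egr2 (0.21) and Ier2 (0.052) were lost. Without the filter Egr1 was also lower (-0.15, adjusted p = 0.019). The number lower past all 3 thresholds was 2 in place of 1 with relative log expression size factors, without the filter, with DESeq2 and with a mean count over 10, and 1 to 3 when a library was left out. Dusp5, at -1.02 without the filter, and Dusp2, with a mean near the threshold, crossed it. The number higher was 2 to 4. Without untreated 1, without genistein 1 and without the filter (0.99), Fos fell short of the fold threshold. A test against the fold threshold itself left 2 higher and 1 lower.

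Medians of log2 fold change by group moved by more than the spread between replicates under some settings. With factors from genes alone, Sprouty and SPRED genes were at -0.23. With library totals they were at -0.20, AP-1 factors at 0.43, DUSP genes at -0.44 and ETV factors at -0.24. Without the filter the Sprouty and SPRED genes were at -0.29, and they were at -0.29 to -0.22 when a library was left out. The median of all 38 genes was then -0.0699 to 0.0486. Signs turned only for genes that had not passed the test. Phlda1 was at 0.0027 with factors from genes alone and 0.0282 with library totals, and at -0.14 to 0.0549 with a library left out. Klf2 was at 0.0388, 0.0644 and -0.0497 to 0.0423 in the same fits, and Nr4a2 at -0.21 to 0.0278 with a library left out. Egr2 at -0.33 (adjusted p = 0.062) and Ier2 at -0.12 did not pass with library totals. The cause of these moves was not tested.

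The replicate block changed no call, with 15 higher, 16 lower and a median of -0.02. Libraries with the same number did not deviate together (correlation -0.026, 2 pairs), and the numbers were not taken as pairs. Genes below about 50 normalised counts (Fosb, Etv1, Egr3, Areg) had standard errors of 0.20 or more on the log2 scale. Changes of that size or smaller, and some larger ones, were not detectable for these genes at this depth. For Etv1, the log2 fold change of 0.44 had a 95% interval from -0.28 to 1.17.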
